A study of Arabidopsis thaliana with 12 samples.

Results

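Leaf RNA sampled at 12 h was set against leaf RNA sampled at 0 h, a pair of sampling times that lie 12 h apart and so at opposite points of a daily cycle. The arrays were chosen by their titles: 2 arrays titled dark 12 h and 2 arrays titled light 0 h, 4 of the 12 arrays of the series. All came from Arabidopsis thaliana Col-0, used as wild type, 30 days old, with no transgene or treatment in any group. Per the labels, the plants received 8 h of light at 145 µmol per m2 per s and then 16 h of dark, at 22 °C and a humidity of 65%. The series covers 6 time points with 2 arrays each (0, 4, 8, 12, 16 and 20 h), on 1-colour Agilent arrays whose probes are for long non-coding RNAs, some protein-coding genes and the precursors of microRNAs. Its title speaks of continuous light, whereas the sample titles and the growth conditions speak of light and dark, and what 0 h refers to is not stated in the labels. The words light and dark are therefore used only as part of the group names. Whether the 2 arrays of a time point hold RNA of separate plants is not stated, so p-values reflect the spread between arrays alone, which may be technical.

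The 12 h arrays lay on a different slide from the 0 h arrays. Slide 2 held the arrays of 8, 12, 16 and 20 h, and slide 1 held those of 0 h and 4 h, in separate scans. No slide holds both times compared, so no within-slide value exists for this difference, and time and slide cannot be told apart in any value of 12 h against 0 h below. The levels at 8, 16 and 20 h, which share the slide of 12 h, are given beside the leading genes.

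The plant circadian clock is a network of transcription factors that repress or activate each other over the day. CCA1 and LHY, MYB-type factors of the morning, are followed by the pseudo-response regulators PRR9, PRR7 and PRR5 and by TOC1 in the evening, which in turn repress CCA1 and LHY. In leaves the clock times light signalling, growth, cold tolerance and stomatal behaviour, and the phytochrome-interacting factors (PIFs), growth-promoting bHLH proteins, stand where clock and light signals meet. Long non-coding RNAs, several of which lie opposite protein-coding genes, can also cycle, FLORE being a known case.

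Out of 15013 probes, 5271 and 4133 were well above background on the 12 h arrays, against 5261 and 6158 on the 0 h arrays. Across the transcripts tested, the 2 arrays of 12 h correlated with r = 0.955 and those of 0 h with r = 0.973, as a description over transcripts that are not independent replicates. The second 16 h array stood apart, with 7832 such probes, and enters the comparison through the shared estimate of spread, the scaling, the choice of probes and the filter on dim ones. With both 16 h arrays left out of the fit alone, 353 transcripts passed, of which 236 were among the 237 described below. Of the 10 RNA spike-ins, 8 were well above background on every array, and their scaled log2 levels at 12 h minus 0 h ran from -0.48 to 0.13. None of the 7 photosynthesis genes listed as leaf markers is named on the array, so the leaf identity was not checked by them. Of the 3 seed genes on the array, EM6 was too dim to test and ABI3 and EM1 lay at scaled log2 levels between -5.90 and -4.08 on these 4 arrays, where the lowest level marked as well above background ran from -6.49 to -6.07.

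A level is the log2 of the processed signal minus the array's 75th percentile over probes well above background on all arrays, and a difference is 12 h minus 0 h of such levels. Each transcript is represented by its brightest probe. Of 5154 transcript names, 3302 were tested, namely those whose brightest probe was well above background on each array of 1 or more time points.

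At 12 h, 104 transcripts were higher and 133 were lower than at 0 h at a Benjamini-Hochberg adjusted p of 0.05 in limma. Together these 237 make up 7.18% of the 3302 tested, with 3.15% higher and 4.03% lower. The clock genes PRR9 and PRR7 and the growth regulator PIF4 led the rises among annotated genes. The antisense RNA FLORE, the clock gene TOC1 and the cold-induced genes LTI78 and COR15B were among the falls. An unadjusted p under 0.05 was reached by 717 transcripts. In all 237 both 12 h arrays lay on one side of both 0 h arrays, which was also the case for 56.3% of all transcripts tested, whatever their p. Of the 237, 193 passed 2-fold (80 higher) and 55 passed 4-fold (22 higher and 33 lower), and the smallest fold called was 1.62.

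The median difference over all 3302 transcripts was -0.29. It was -0.45 in the dimmest sixth of transcripts and -0.04 in the brightest sixth, and 19 of the 237 calls fell in the dimmest sixth. Each of the 237 called differences was larger in size than the median of all transcripts, so none could change sign when set against it. The split between higher and lower depended on scaling: of the calls, 43.9% were higher at 12 h here, 66.0% (35 of 53) when the 75th percentile was taken over all probes, 56.6% (138 of 244) after cyclic loess and 54.0% (67 of 124) in the deposited series table. The median of all transcripts was 0.01, -0.01 and -0.09 in these 3 settings. The count fell to 48 and 73 without the first and the second 0 h array, and to 154 without the second 12 h array. When only the 4 arrays were fitted it was 3 (PRR9, PRR7 and PIF4), with 752 at an unadjusted p under 0.05. That fit is not counted below among the alternatives that ended a call.

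**Figure D1:**
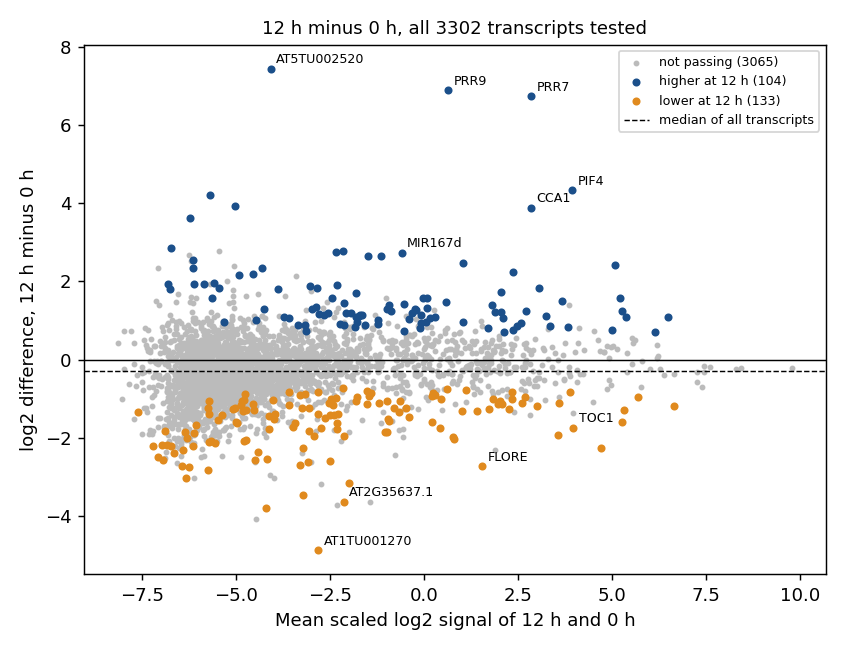
Difference in scaled log2 signal, 12 h minus 0 h (vertical axis), against the mean scaled log2 signal of both times (horizontal axis) for the 3302 transcripts tested. Blue points are the 104 transcripts higher at 12 h, orange points the 133 lower and grey points those that did not pass. The dashed line is the median of all transcripts at -0.29.

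The morning genes of the clock were higher at 12 h or did not pass. Of the 3 on the array, 2 rose and none fell, with a median difference of 0.85. This list and the gene lists below were chosen with earlier results of these data known, so their counts are a description. Among all transcripts tested 3.15% rose and 4.03% fell, and among protein-coding names 28.6% passed in either direction. CCA1 had levels of 5.02 and 4.53 at 12 h, against 0.80 and 0.99 at 0 h. Both 12 h arrays were far above both 0 h arrays. The difference was 3.88 ± 0.21 (SE), or 14.7-fold, with limma adjusted p = 4.4e-05. LHY, the partner of CCA1, had 4.76 and 5.01 at 12 h, against 4.26 and 4.02 at 0 h, and its difference of 0.74 ± 0.19 did not pass (limma adjusted p = 0.067). The arrays of LHY did not overlap either, which was also the case for 56.3% of all transcripts tested. CHE, a TCP factor that represses CCA1, rose by 0.85 ± 0.20 (limma adjusted p = 0.048), with 4.06 and 4.42 at 12 h, against 3.35 and 3.44 at 0 h.

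These 2 time points fell on the flanks of the CCA1 and LHY courses rather than on their extremes. The CCA1 means from 0 to 20 h were 0.90, 6.52, 6.60, 4.77, 0.37 and -0.68, and those of LHY were 4.14, 8.05, 8.26, 4.88, 0.73 and 0.16. For both genes, 12 h lay below the means of 4 h and 8 h and above those of 16 h and 20 h. The difference between 12 h and 0 h is therefore a small part of the range that LHY covered over the day.

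Of the 5 day and evening clock genes on the array, 3 rose, 1 fell and 1 did not pass, with a median difference of 1.1. Among all transcripts tested 3.15% rose and 4.03% fell. Of the 91 protein-coding names tested, which include the listed genes, 17 rose and 9 fell. PRR9 had levels of 4.07 and 4.10 at 12 h, against -2.76 and -2.83 at 0 h. Its arrays agreed within 0.1 at each time, and the gap between times was many times wider. It rose by 6.88 ± 0.18, or 118-fold (limma adjusted p = 7.9e-07), and its 3 probes gave differences of 6.88 to 7.33. PRR7 had 6.00 and 6.43 at 12 h, against -0.57 and -0.47 at 0 h, a rise of 6.73 ± 0.28 or 106-fold (limma adjusted p = 2.0e-05). Both genes had their highest mean of the 6 time points at 12 h and their lowest at 0 h. The PRR9 means from 0 to 20 h were -2.80, -0.81, 2.35, 4.08, 0.06 and -2.19, so the 20 h arrays, on the same slide as 12 h, stood close to 0 h. The PRR7 means were -0.52, 1.19, 3.24, 6.22, 5.60 and 2.00, so PRR7 stayed high at 16 h, when PRR9 was already low.

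The later members of the family differed less between these times. PRR5 had 3.97 and 3.62 at 12 h, against 2.71 and 2.68 at 0 h, a rise of 1.1 ± 0.20 (limma adjusted p = 0.017). PRR3 had 0.02 and 0.23 at 12 h, against -0.24 and -0.04 at 0 h, and did not pass (0.26 ± 0.25, limma adjusted p = 0.60). For both, the highest mean of the day was at 16 h, 5.19 for PRR5 and 3.40 for PRR3. TOC1, the evening repressor of CCA1 and LHY, had 3.04 and 3.17 at 12 h, against 4.92 and 4.76 at 0 h. Both 12 h arrays were below both 0 h arrays, and the fall was 1.73 on the log2 scale, or 3.33-fold (SE 0.17, limma adjusted p = 0.0012). The TOC1 means from 0 to 20 h were 4.84, 4.19, 2.35, 3.10, 5.80 and 5.34, so that 0 h was nearer to the means of 16 h and 20 h than 12 h was.

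The large rises of PRR9 and PRR7 kept their calls under all 19 alternative settings. In a fit of a 24 h cosine with a term for slide, CCA1 had a difference of 3.32 with limma adjusted p = 0.064. In that fit PRR5 had 6.21 (limma adjusted p = 4.5e-05), TOC1 had -0.34 and CHE had 0.0057, and the median of the day and evening list was 6.21. PRR5, TOC1 and CHE lost their calls under 6, 2 and 10 of the alternatives.

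**Figure D2:**
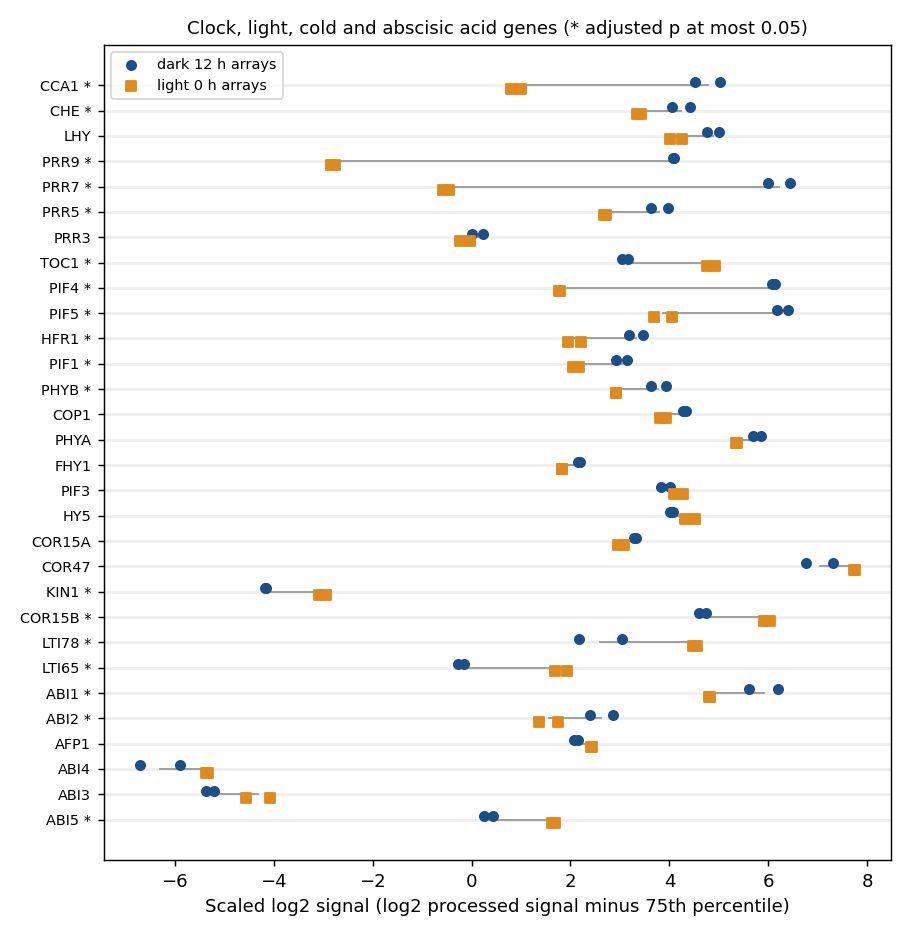
Scaled log2 signal (horizontal axis) of each clock, light, cold and abscisic acid gene on the array, with blue circles for the 2 dark 12 h arrays and orange squares for the 2 light 0 h arrays. Grey lines join the means, and an asterisk marks an adjusted p of at most 0.05. PRR9 and PRR7 show the widest gaps (6.88 and 6.73), and TOC1, LTI78, LTI65, COR15B, KIN1 and ABI5 have their 12 h arrays to the left.

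Of the 10 genes of the light signalling list on the array, 5 rose at 12 h and 0 fell. Among all transcripts tested 3.15% rose and 4.03% fell. Of the 91 protein-coding names tested, which include the listed genes, 17 rose and 9 fell. At an unadjusted p under 0.05 limma gave 6 higher and 0 lower in the list. LAF1, a gene of far-red light responses outside the list, fell and is described below. The median difference of the 10 listed genes was 0.64, against -0.29 over all transcripts. PIF4, a bHLH factor that drives elongation growth, had 6.08 and 6.13 at 12 h, against 1.80 and 1.76 at 0 h. Its arrays at each time were almost equal, and the rise was 4.32 ± 0.21, or 20.0-fold (limma adjusted p = 3.1e-05). PIF5, its close relative, had 6.17 and 6.40 at 12 h, against 3.70 and 4.05 at 0 h, a rise of 2.41 ± 0.20 or 5.30-fold (limma adjusted p = 0.00061). Neither gene's arrays overlapped between times, which was also the case for 56.3% of all transcripts tested. Over the day PIF4 was highest at 12 h and 16 h (6.10 and 6.14), while PIF5 was as high at 8 h (6.21) as at 12 h (6.28).

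PIF1, a PIF best known from seeds and seedlings, rose by 0.93 ± 0.17, with 2.92 and 3.15 at 12 h, against 2.05 and 2.16 at 0 h (limma adjusted p = 0.021). HFR1, an atypical bHLH protein that sequesters PIFs, rose by 1.24 ± 0.20, with 3.17 and 3.47 at 12 h, against 1.95 and 2.21 at 0 h (limma adjusted p = 0.012). PHYB, the red light receptor that destabilises PIFs, rose by 0.85 ± 0.20, with 3.63 and 3.93 at 12 h, against 2.93 at 0 h on both arrays (limma adjusted p = 0.047). The arrays of these 3 genes did not overlap between times, as for 56.3% of all transcripts tested. Other probes of these genes showed less, down to 0.21 for HFR1 and 0.08 for PHYB. The differences that did not pass were 0.43 for COP1, an E3 ligase that removes light-response factors in the dark, 0.42 for the far-red receptor PHYA and 0.34 for FHY1, which imports PHYA into the nucleus. PIF3 had -0.27 and HY5, a bZIP activator of light-induced genes, had -0.38. After normexp with quantile normalization the list held 7 rises and 2 falls, PIF3 with -0.60 and HY5 with -0.44 (limma adjusted p = 0.0022 and 0.0063). In the cosine fit with a slide term it held 3 rises and 1 fall, PIF3 with -2.41 (limma adjusted p = 0.014). The calls for HFR1, PIF1 and PHYB were lost under 5, 7 and 10 alternatives, whereas that for PIF4 held under all and that for PIF5 under all but the fit of the 4 arrays alone.

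**Figure D3:**
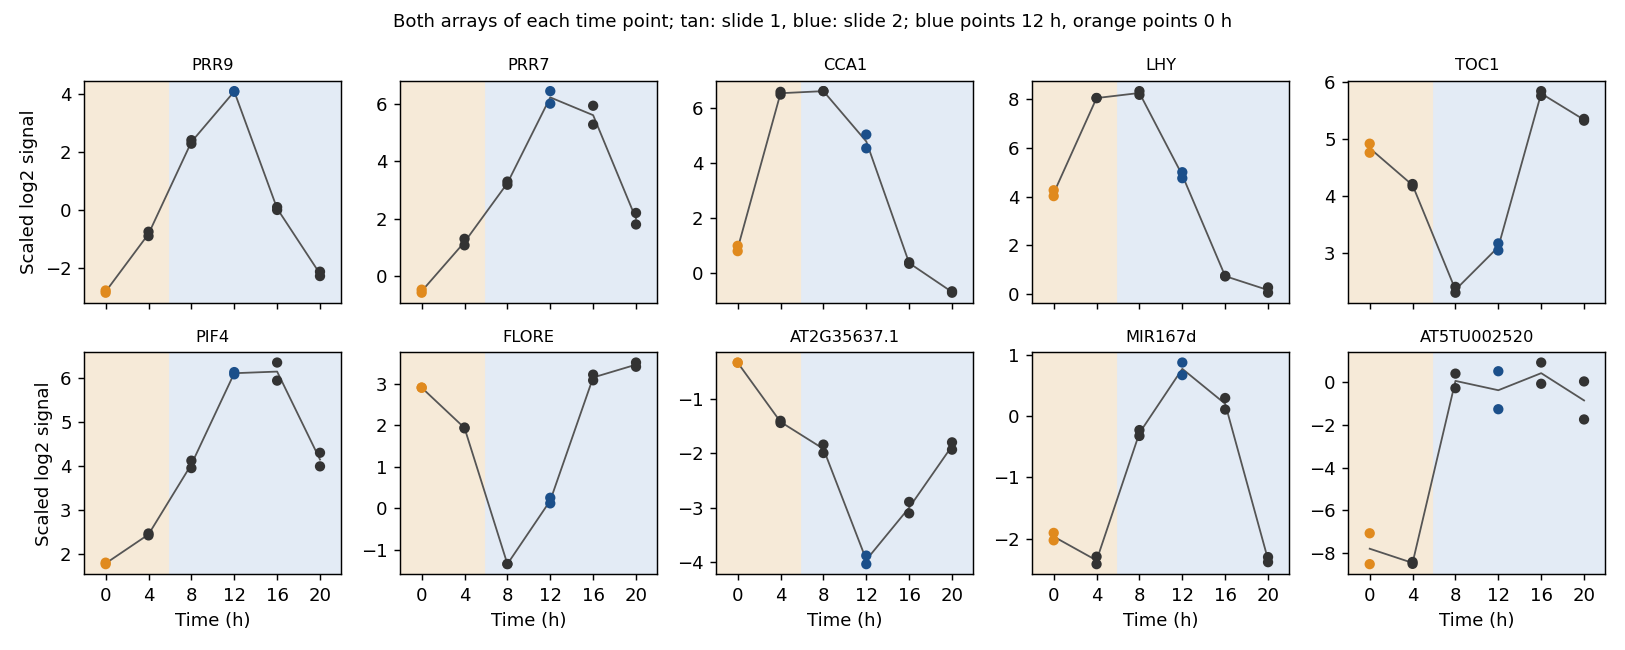
Scaled log2 signal (vertical axes) on both arrays of each time point (horizontal axes, hours) for 10 transcripts; grey lines join the means, blue points are 12 h and orange points 0 h. The tan field holds slide 1 and the blue field slide 2. PRR9 and PRR7 are highest at 12 h, LHY and CCA1 at 8 h (8.26 and 6.60), and AT5TU002520 is low on slide 1 and high on slide 2.

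Among the cold and drought response genes, of the 6 on the array, 4 fell, 0 rose and 2 did not pass, with a median difference of -1.22. This list too was chosen with earlier results of these data known. Among all transcripts tested 4.03% fell and 3.15% rose. Of the 91 protein-coding names tested, which include the listed genes, 9 fell and 17 rose. At an unadjusted p under 0.05 limma gave 5 lower and 0 higher of the 6. COR15B, which encodes a chloroplast-protecting protein, had 4.75 and 4.60 at 12 h, against 6.03 and 5.91 at 0 h, a difference of -1.30 ± 0.18 (limma adjusted p = 0.0061). LTI78, also called RD29A, a common reporter of cold and drought signalling, had 2.17 and 3.04 at 12 h, against 4.57 and 4.48 at 0 h. Its 12 h arrays were wider apart than its 0 h arrays, yet both were lower, and the difference was -1.92 ± 0.29 (limma adjusted p = 0.0088). KIN1, a small hydrophilic cold-induced protein gene, was dim, with -4.17 and -4.16 at 12 h, against -2.94 and -3.09 at 0 h, a difference of -1.15 ± 0.19 (limma adjusted p = 0.013). LTI65, also called RD29B, had -0.28 and -0.16 at 12 h, against 1.93 and 1.68 at 0 h by its brightest probe (-2.03 ± 0.34, limma adjusted p = 0.013). Its 3 probes, all well above background at one of the times, ran from -2.03 to 2.40 and so disagreed in direction. The mean of all probes of LTI65 gave 0.87. Turns of direction aside, the calls for COR15B, LTI78, LTI65 and KIN1 were lost under 2, 4, 5 and 8 alternatives.

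COR15A, the neighbouring paralog of COR15B, had 3.33 and 3.29 at 12 h, against 2.96 and 3.09 at 0 h, and did not pass (0.29 ± 0.24, limma adjusted p = 0.55). COR47, a dehydrin gene, had 6.76 and 7.32 at 12 h, against 7.75 and 7.74 at 0 h, and did not pass either (-0.71 ± 0.25, limma adjusted p = 0.15). For COR15B, LTI78 and COR15A the mean was highest at 16 h, with 8.73, 5.90 and 5.76, and lowest at 8 h, with 1.06, -0.30 and -1.70. Both 12 h and 0 h thus lay between the extremes of these courses. In the cosine fit with a slide term 3 of the 6 passed as higher and 0 as lower, with a list median of 3.18. COR15B had 4.03, LTI78 had 6.86 and COR15A had 4.24 (limma adjusted p = 0.018, 0.017 and 0.020), while KIN1 had 2.32 and did not pass. These are differences of the fitted wave and not of measured levels. Leaving out the first 0 h array left 0 falls and leaving out the second left 1; there was 1 with the mean of all probes (list median -0.50) and 0 with the 75th percentile over all probes (list median -0.92).

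Among 6 abscisic acid signalling genes, 2 rose, 1 fell and 3 did not pass, while 3.15% of all transcripts tested rose and 4.03% fell. Of the 91 protein-coding names tested, which include the listed genes, 17 rose and 9 fell. The median difference of the list was -0.63. The members moved in different directions. ABI1 and ABI2, protein phosphatases that damp the hormone's signal, rose: ABI1 had 5.61 and 6.21 at 12 h, against 4.80 and 4.82 at 0 h (1.1 ± 0.23, limma adjusted p = 0.032), and ABI2 had 2.39 and 2.86 at 12 h, against 1.37 and 1.75 at 0 h (1.06 ± 0.23, limma adjusted p = 0.035). ABI5, a bZIP factor that acts positively in the same pathway, had 0.26 and 0.43 at 12 h, against 1.69 and 1.62 at 0 h, a difference of -1.31 ± 0.18 (limma adjusted p = 0.0061). The differences that did not pass were -0.31 for AFP1, a protein that binds ABI5, -0.95 for the AP2-type factor ABI4 and -0.97 for the B3-type factor ABI3. The calls for ABI1 and ABI2 were lost under 8 and 7 alternatives and that for ABI5 under 3, and the cosine fit with a slide term gave 2.22 for ABI2 and -0.28 for ABI5.

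None of 5 RNA silencing genes on the array passed in limma, at the adjusted threshold or at an unadjusted p under 0.05. Their differences ran from -1.09 for STRS1, a stress-related RNA helicase for which the first 12 h spot was left out as an outlier, to 0.66 for NRPD1B, a subunit specific to RNA polymerase V. DCL1, which cuts microRNA precursors, had 3.72 and 3.81 at 12 h, against 3.58 and 3.70 at 0 h (0.12 ± 0.17, limma adjusted p = 0.73). AGO2, an Argonaute protein of antiviral silencing, had -0.23 and NRPD1A, a subunit specific to RNA polymerase IV, had -0.37. The median of the 5 was -0.23, close to that of all transcripts.

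The array carries 91 testable names of protein-coding genes, of which 26 passed (28.6%, against 7.18% of all transcripts tested), 17 higher and 9 lower. Of these, 18 are the clock, light, cold and hormone genes described above. The other 8 were named after their values were seen, as all the remaining protein-coding genes that passed. MYB3, a repressor of phenylpropanoid genes, had 4.33 and 4.51 at 12 h, against 2.90 and 2.96 at 0 h (1.49 ± 0.17, limma adjusted p = 0.0028). NF-YA5, a subunit of the CCAAT-binding complex with a role in drought tolerance, had 0.81 and 0.86 at 12 h, against -0.26 and -0.23 at 0 h (1.09 ± 0.17, limma adjusted p = 0.010). For both, the 12 h arrays were above the 0 h arrays. AT1G24148.1 was higher by 1.83, AT1G20065.1 by 0.89 and EDA3 by 0.75. Lower at 12 h were AT1G65481.1 with -1.14 and ADC2, an arginine decarboxylase of polyamine synthesis, with mean levels of 6.06 at 12 h and 7.24 at 0 h and a difference of -1.18. LAF1, a MYB factor of far-red light responses, had a difference of -1.42. The calls for AT1G20065.1, EDA3 and AT1G65481.1 were lost under 9 alternatives each. Those for ADC2 and LAF1 were lost under 6 each, that for NF-YA5 under 5 and that for MYB3 under 2. AT1G24148.1 lost its call only in the fit of the 4 arrays alone.

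Of 358 tested names of annotated non-coding loci (long non-coding, other non-coding and antisense RNAs), 53 passed (14.8%), 28 higher and 25 lower, with a median difference of -0.10. FLORE, an antisense RNA of the locus of CDF5 that takes part in photoperiodic flowering, had levels of 0.12 and 0.25 at 12 h, against 2.90 and 2.91 at 0 h. Its arrays were close together at each time, and the difference was -2.72 ± 0.17, or 6.60-fold lower (limma adjusted p = 0.00011). Its 3 probes gave -2.97 to -2.72. The FLORE means from 0 to 20 h were 2.90, 1.93, -1.35, 0.18, 3.15 and 3.46, so 12 h came just after the trough at 8 h. TOC1 had its lowest mean at 8 h as well. In the cosine fit with a slide term FLORE had -1.04 and did not pass (limma adjusted p = 0.50). AT3G13061.1, described next, had 1.08 there (limma adjusted p = 0.53).

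The other 3 members of the list of known non-coding RNAs on the array did not pass. ASCO, which competes for splicing factors, had 4.15 and 4.07 at 12 h, against 3.89 and 3.93 at 0 h (0.20 ± 0.16, limma adjusted p = 0.54). TAS4, a source of trans-acting small interfering RNAs, had a difference of -0.40, and ELENA1, an RNA of immune responses, had -1.02 at a low signal. The list of 4 thus held 1 fall and 0 rises, with 2 lower and 0 higher at an unadjusted p under 0.05 in limma, and its median was -0.71. GUT15, a named non-coding RNA outside the list that is given here after its value was seen, had 5.11 and 5.32 at 12 h, against 6.07 and 6.27 at 0 h (-0.96 ± 0.19, limma adjusted p = 0.028).

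The largest rise of an annotated non-coding locus was that of AT4G31398.1, which overlaps CTF7, a cohesin acetyltransferase gene. It had -1.15 and -0.78 at 12 h, against -3.72 and -3.74 at 0 h, a difference of 2.76 ± 0.22 or 6.77-fold (limma adjusted p = 0.00044). AT3G13061.1, which overlaps ECT5, a gene of the YTH family of RNA-methylation readers, had 3.38 and 3.56 at 12 h, against 1.32 and 1.16 at 0 h (2.23 ± 0.18, limma adjusted p = 0.00049). AT3G06125 is represented by 3 transcript names, and all 3 rose, by 2.64, 1.58 and 1.23. The first of them, AT3G06125.1, had -0.29 and -0.06 at 12 h, against -2.81 and -2.83 at 0 h. The other 2 names had levels between 5.74 and 6.13 at 12 h and between 4.36 and 4.68 at 0 h.

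The largest fall of an annotated locus was that of AT2G35637.1, which overlaps AT2G35640. It had -3.89 and -4.04 at 12 h, against -0.33 at 0 h on both arrays, a difference of -3.63 ± 0.18 or 12.4-fold lower (limma adjusted p = 3.1e-05), and its 3 probes gave -3.70 to -3.63. The means of this RNA from 0 to 20 h were -0.33, -1.42, -1.92, -3.96, -3.0 and -1.87, so it was lowest at 12 h also among the arrays of slide 2. AT2G45685.1, which overlaps the TCP factor gene TCP9, had -4.07 and -3.74 at 12 h, against -1.98 and -1.92 at 0 h (-1.95 ± 0.19, limma adjusted p = 0.0012). AT1G68568.1, annotated as an antisense RNA and overlapping AT1G68570, had a difference of -1.81 ± 0.33 (limma adjusted p = 0.017). AT2G45315.1, which overlaps GAE4, a gene of cell wall sugar synthesis, had a difference of -1.75 ± 0.30 (limma adjusted p = 0.013), and AT2G45315.2 one of -1.05. The calls for AT1G68568.1, AT2G45315.1 and AT2G45685.1 were lost under 6, 3 and 2 alternatives. AT2G35637.1 lost its call only in the fit of the 4 arrays alone.

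AT2G13431.1, annotated as a pseudogene, had 3.78 and 3.39 at 12 h, against 5.86 and 5.83 at 0 h (-2.26 ± 0.21, limma adjusted p = 0.0010). AT3G06962.1, which was well above background on only 1 of the 12 h arrays, had a difference of -2.05 ± 0.27 (limma adjusted p = 0.0052). Its call was lost under 7 alternatives, both normexp settings among them, and that for AT2G13431.1 under 1. Every locus with more than 1 name among those that passed moved in 1 direction. Beside the loci named above these were AT1G58590, with -1.32 and -1.12, and AT4G13495, with 0.72 and 1.08.

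Many of the non-coding loci overlap a protein-coding gene in the gene table. Of the 48 that passed 28 did so (58.3%), against 177 of the 289 tested (61.2%), given without a test. None of the 28 has its overlapping gene among the names on the array, so the levels of such pairs could not be set side by side. The gene table gives no strand, and a probe on the wrong side of an overlap cannot be recognised from it.

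**Figure D4:**
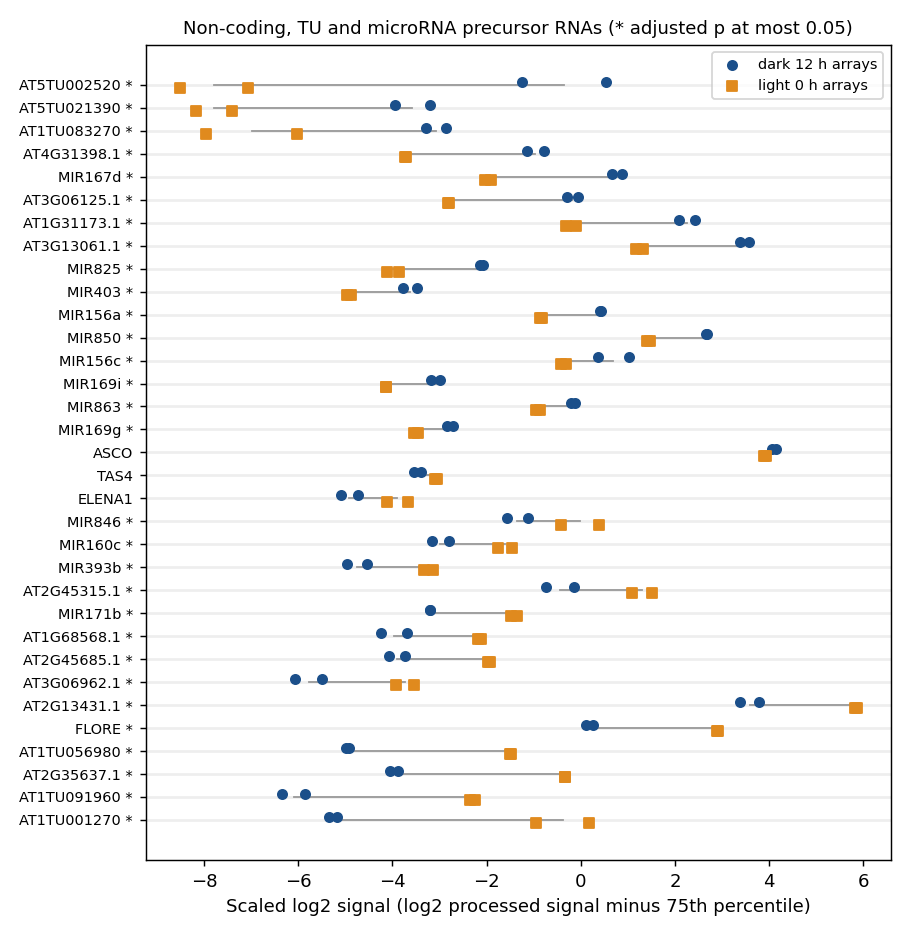
Scaled log2 signal (horizontal axis) of the leading non-coding RNAs and TU transcripts, the known non-coding RNAs and every microRNA precursor that passed, with blue circles for the 2 dark 12 h arrays, orange squares for the 2 light 0 h arrays and grey lines between the means. An asterisk marks an adjusted p of at most 0.05. AT4G31398.1 and MIR167d differ by 2.76 and 2.74, and FLORE and AT2G35637.1 by -2.72 and -3.63.

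MicroRNA precursors passed in 13 of 121 tested names (10.7%, against 7.18% of all transcripts tested), 9 higher and 4 lower at 12 h. Their median level was -3.68, against -5.12 for the unannotated transcription units that make up most of the transcripts tested. Whether the 2 shares differ because of signal was not tested. The median difference over the 121 was 0.08. The probes report the precursor RNA and not the mature microRNA. MIR167d, whose family targets auxin response factors, had 0.87 and 0.66 at 12 h, against -1.91 and -2.03 at 0 h. Both arrays at each time were close together, and the rise was 2.74 ± 0.18 or 6.66-fold (limma adjusted p = 0.00017). The same locus is on the array as AT1G31173.1, with its own probes, and rose by 2.46 ± 0.20 (limma adjusted p = 0.00054). MIR167d was low at 0, 4 and 20 h (-1.97, -2.36 and -2.34) and higher at 8, 12 and 16 h (-0.28, 0.77 and 0.20), so its low values lay on both slides. The other 5 tested names of the MIR167 family did not pass, with differences from -1.43 to 0.68.

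MIR825 rose by 1.88 ± 0.22 (limma adjusted p = 0.0028), with -2.08 and -2.14 at 12 h, against -3.86 and -4.12 at 0 h. MIR403, whose mature form targets AGO2, had a difference of 1.29 (limma adjusted p = 0.0082). MIR156a and MIR156c, of the family that targets SPL factors and marks the juvenile phase, were higher by 1.26 and 1.07, while the other 6 members tested ran from -0.44 to 0.45. MIR169i and MIR169g, of the family that targets NF-YA genes, were higher by 1.06 and 0.72, and the other 11 ran from -0.39 to 0.81. MIR850 and MIR863, which lie within the locus AT4G13495 in the gene table, were higher by 1.22 and 0.74, as were the 2 names of that locus given above.

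Lower at 12 h was MIR171b, of the family that targets GRAS factors, with -3.21 and -3.20 at 12 h, against -1.49 and -1.35 at 0 h (-1.78 ± 0.18, limma adjusted p = 0.0014). MIR393b, of the family that targets auxin receptors, had a difference of -1.52, MIR160c, of a family that targets auxin response factors, had -1.38 and MIR846 had -1.33. The other members of the MIR171, MIR393 and MIR160 families tested did not pass, with differences from -0.75 to -0.04. Precursors of 1 family share sequence, and how far their probes cross-hybridise was not tested. MIR169i and MIR169g lost their calls under 13 alternatives each, MIR863 under 11, MIR846 under 10, MIR156c under 9, MIR156a under 8, MIR403 and MIR393b under 6 each, MIR160c under 3 and MIR850 and MIR171b under 2 each, whereas MIR167d and MIR825 lost theirs only in the fit of the 4 arrays alone.

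Transcripts with a TU code, unannotated transcription units without a gene name in the tables used, made up 2719 of the 3302 tested and 141 of the 237 that passed (5.19% of those tested), 48 higher and 93 lower. Among all transcripts tested 7.18% passed, 3.15% higher and 4.03% lower. The median difference of TU transcripts was -0.34, close to that of all transcripts, of which they are the bulk. Detection was uneven: of all 3302, 248 were well above background on both 0 h arrays and no 12 h array, and 33 the other way round. Of all 133 calls lower at 12 h, 23 had no 12 h array well above background. Of the 104 higher, 12 had no such 0 h array. AT5TU002520 had 0.53 and -1.25 at 12 h and was not well above background on either 0 h array, which makes it at least 64.6-fold higher at 12 h. In such a bound the dim arrays are set no lower than the faintest probe that was well above background on them, and the fitted limma adjusted p was 0.0020. Its means were 0.07, 0.44 and -0.84 at 8, 16 and 20 h and -8.46 at 4 h, so its level separated the slides as well as the times compared. In the cosine fit with a slide term its difference was 0.90 (limma adjusted p = 0.74). Only 1 of its 3 probes was well above background, and the lowest of the 3 differences was -1.34.

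AT5TU021390 was at least 6.95-fold higher at 12 h (limma adjusted p = 0.0027), and its 3 probes gave 3.40 to 4.56. Its means at 8 h and 20 h (-6.96 and -7.46), on the slide of 12 h, were close to the mean of -7.80 at 0 h. For AT5TU021390 the call was lost after normexp with the 75th percentile (limma adjusted p = 0.23). AT1TU083270 had a difference of 3.92 ± 0.66 (limma adjusted p = 0.013), with 1 of the 0 h arrays well above background. The mean of all its probes gave 1.63, and its call was lost under 2 alternatives. Among the falls, AT1TU001270 had -5.34 and -5.17 at 12 h, against 0.17 and -0.94 at 0 h (-4.87 ± 0.43, limma adjusted p = 0.00072), with means of -4.45, -3.84 and -3.88 at 8, 16 and 20 h and a second probe at -0.78. Its difference in the cosine fit with a slide term was -1.39 (limma adjusted p = 0.39). AT1TU091960, not well above background on either 12 h array, was at least 12.6-fold lower at 12 h (limma adjusted p = 0.044), a call that 10 alternatives ended. AT1TU056980 had -4.92 and -4.98 at 12 h, against -1.51 and -1.48 at 0 h (-3.46 ± 0.17, limma adjusted p = 3.1e-05), and its direction turned in the cosine fit with a slide term (0.65).

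Over all 6 time points, 73 of the 104 transcripts higher at 12 h had their highest mean at 12 h and 18 had it at 16 h. The time of the lowest mean was 20 h for 38 and 0 h for 37 of the 104. Of the 133 lower at 12 h, 96 had their lowest mean at 12 h and 63 their highest at 0 h. Among all 3302 transcripts tested, 9.93% had their highest mean and 29.5% their lowest at 12 h. These shares are given as a description, since the calls at 12 h and 0 h themselves favour such extremes. Of the 237, 170 had at least 2 probes well above background at one of these times, and in 148 of the 170 (87.1%) all such probes gave the same direction. The brightest probe, which gave the call, is counted among them where it was seen. No such share was taken over all transcripts tested, so this agreement is a description.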

How the data were processed

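The 12 arrays (6 time points of 2 replicates, from the sample titles) were read with Agilent Feature Extraction 10.5.1.1, per the file headers, and the authors' files give spot intensity on a linear scale. The series table deposited beside them is on a log2 scale by a method not given in the sources used here; each array's column correlated with its scanner values with r of at least 0.995, and the column medians were all 1.37. The table was used only as an alternative. Control spots (536, of which 77 negative) and outlier spots were left out, and no probe was saturated. Of the 2876 probes that every array marks as well above background, scaling used those without an outlier flag on any array. The brightest probe by mean scaled log2 level stood for each name. limma 3.58.1 in R 4.3.3 (lmFit, eBayes) was fitted over all 12 arrays with 1 mean per time point, 6 residual degrees of freedom and no covariate. p-values were adjusted by Benjamini-Hochberg over all transcripts tested. Errors are standard errors from this fit, and the number of arrays limits their precision.

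The members and gene lists were chosen with earlier results of these data known. The text names the 10 transcripts with a locus code or precursor name that rose most and the 10 that fell most, the 3 largest of each with a TU code, all list members on the array and all precursors that passed; the remaining protein-coding genes that passed were added. Symbols and overlaps came from a RefSeq gene table (TAIR10.1), where 400 of 405 loci and 164 of 173 precursor names matched. CHE is listed there under another symbol. The headers name an older build, so no coordinates are given. The replicate-1 deviations of different time points correlated between -0.10 and 0.19, above 0.1 in 5 of 15 pairs of time points, so replicate numbers were not taken as pairs. The normexp alternatives used median in place of mean spot signal, since that is the raw signal the files hold.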

Additional observations from a re-analysis of the deposited data

How the results depend on the processing

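The count of 237 fell to 53 with the 75th percentile over all probes, 124 with the deposited series table, 149 with the mean of all probes, 81 without a filter on dim probes and 3 with only the 4 arrays of these times, and reached 356 with probes well above background on all 12 arrays. Leaving out 1 array gave 48 to 181, the lowest without the first 0 h array. With the replicate number as a block the count was 188, of which 178 were shared with the 237. In the 24 h cosine with a slide term it was 173, of which 83 were shared and 3 of those had the opposite direction. Of the 56 named transcripts that passed, 11 kept call and direction under all alternatives but the fit of 4 arrays, and 36 lost their call with the all-probe percentile; the cause was not tested. Under the cosine with slide term the differences of these 56 stayed within 1.5 times for 21, were larger than that for 19, smaller for 12 and opposite for 4. It turned COR15B (4.03), LTI78 (6.86), KIN1 (2.32) and AT1TU056980 (0.65), and among transcripts that had not passed PHYA (-1.06), ASCO (-0.59), DCL1 (-0.31), HY5 (0.36), TAS4 (0.65), COR47 (0.57), ABI4 (1.41), ABI3 (2.53), ELENA1 (0.76) and STRS1 (0.59). PRR3 turned under normexp with the 75th percentile (-0.063), normexp with quantile normalization (-0.040) and the mean of all probes (-0.017). The mean of all probes also turned LTI65 (0.87) and AGO2 (0.040). The all-probe percentile turned AGO2 (0.079) and PIF3 (0.040), the series table DCL1 (-0.041), and leaving out 1 array moved AGO2 between -0.62 and 0.16, 0.16 being without the first 12 h array. Cyclic loess, chosen after seeing the data, gave 244. STRS1 has no value without the second 12 h array. Dim transcripts are limited by signal over background.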
